A study of Mus musculus with 6 samples.

Results

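The interferon-inducible GTPases of the mouse form 2 main families, the immunity-related GTPases (IRG) and the guanylate-binding proteins (GBP), and 10 of their genes were followed here in early LPre-B cells (large pre-B cells of the early phase) with and without intact *Upf1*. The IRG members were *Irgm1*, *Irgm2*, *Igtp*, *Iigp1* and *Ifi47*, and the GBP members were *Gbp2*, *Gbp3*, *Gbp7*, *Gbp8* and *Gbp9*. They were chosen by name and found by their Entrez identifiers, and each of the 10 had a row among the 13426 genes of the expression table. All 10 were higher in Upf1-cKO than in Ctrl cells, from 1.41-fold for *Irgm1* to 10.3-fold for *Iigp1* as a ratio of group means, with *Gbp7* the most abundant member in Upf1-cKO cells at 160 ± 9.70 normalised reads per 1e6 (SD, n = 3).

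Early LPre-B cells are bone marrow B cell progenitors at the stage at which the heavy chain V segments are joined. The study sorted them as lineage-negative B220+ surface IgM- CD43+ CD2- cells of large size, from adult age-matched mice of both sexes on a C57BL/6 background. Ctrl mice carried floxed *Upf1* on both alleles and no Cre (Upf1 Flox/Flox, Mb1 +/+), and Upf1-cKO mice carried the same floxed alleles with a Cre recombinase on one allele of *Mb1* (Upf1 Flox/Flox, Mb1 Cre/+). *Mb1* is another name of *Cd79a*, so Cre is expressed in the B lineage, and the allele that carries Cre is disrupted in Upf1-cKO mice. UPF1, the product of the targeted gene, is a helicase that acts on RNA, above all in nonsense-mediated decay of mRNA. There were 3 libraries per group, with 9732498 to 11006834 reads in genes per library, and the study describes the samples of its experiments as independent biological replicates.

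Interferons induce both families in most cell types. Type I interferons act through the receptor chains IFNAR1 and IFNAR2 and the kinases JAK1 and TYK2 on a complex that includes STAT2 and IRF9 and binds the interferon-stimulated response element (ISRE). Interferon-gamma acts through IFNGR1, IFNGR2, JAK1 and JAK2 on genes with a gamma-activated site (GAS), and induces IRF1, which also binds ISRE-like sequences. The proteins bind GTP and gather on membranes. The IRGM proteins sit on the membranes of the cell itself and hold the effector IRG proteins in check, while effector IRG proteins and GBPs gather on vacuoles that hold parasites and bacteria, with the ATG8 conjugation machinery setting where they load. Some GBPs also open bacterial membranes, which brings lipopolysaccharide to caspase-11.

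The genes lie in clusters of near copies. In GRCm38, *Irgm1* (chr11:48865245-48871420) and *Ifi47* (chr11:49076587-49096987) mark the ends of a first IRG cluster on chromosome 11, and *Igtp* (chr11:58199556-58207592) and *Irgm2* (chr11:58214977-58222783) lie in a second. Chromosome 3 holds *Gbp7* (chr3:142530336-142550151), *Gbp3* (chr3:142560016-142573213) and *Gbp2* (chr3:142620663-142638008), and chromosome 5 holds *Gbp8* (chr5:105012513-105053609) and *Gbp9* (chr5:105076464-105110357). All 10 are annotated as protein-coding, and values here are reads over all exons of a gene.

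Promoter windows of RefSeq, from 250 bases before to 50 after the annotated start, were at hand for 7 of the 10 members. They were searched on both strands for 2 motifs, the core of the ISRE and of the sites of IRF proteins (GAAANNGAA) and the GAS (TTCNNNGAA, which reads the same on both strands). No 9 bases can match both motifs, though a match of one can overlap a match of the other. The ISRE core was found in the windows of 6 members, and in 8.56% of all 32851 windows of the same length. The GAS was found in 3 members and in 8.30% of all windows. Windows of 6 members are shown because they hold these matches, each as the 120 bases before the start, read in the direction of the gene, with the matches in capitals. *Igtp* (chr11:58199436-58199555, plus strand) and *Irgm2* (chr11:58214857-58214976, plus strand) each hold a GAS followed after 2 bases by an ISRE core, whereas *Irgm1* (chr11:48871421-48871540, minus strand) holds 2 overlapping ISRE cores.
Igtp: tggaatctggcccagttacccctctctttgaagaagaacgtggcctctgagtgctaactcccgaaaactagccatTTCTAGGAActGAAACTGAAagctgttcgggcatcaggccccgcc
Irgm2: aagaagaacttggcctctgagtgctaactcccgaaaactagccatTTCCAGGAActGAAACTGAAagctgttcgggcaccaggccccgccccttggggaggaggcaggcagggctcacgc
Irgm1: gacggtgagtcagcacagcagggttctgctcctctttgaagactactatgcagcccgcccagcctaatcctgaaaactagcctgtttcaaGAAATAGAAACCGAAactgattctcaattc

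The GBP windows hold the ISRE core on the other strand, so that it reads TTCNNTTTC in the direction of the gene. *Gbp2* (chr3:142620543-142620662, plus strand) holds 1 of them, *Gbp3* (chr3:142559924-142560043, plus strand) 2 that overlap, and *Gbp7* (chr3:142530216-142530335, plus strand) 1 of them after 2 GAS matches.
Gbp2: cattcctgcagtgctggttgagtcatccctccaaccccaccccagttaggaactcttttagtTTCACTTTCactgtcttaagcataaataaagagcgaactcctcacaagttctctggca
Gbp3: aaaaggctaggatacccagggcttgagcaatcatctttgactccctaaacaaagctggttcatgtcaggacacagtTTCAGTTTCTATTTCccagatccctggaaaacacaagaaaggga
Gbp7: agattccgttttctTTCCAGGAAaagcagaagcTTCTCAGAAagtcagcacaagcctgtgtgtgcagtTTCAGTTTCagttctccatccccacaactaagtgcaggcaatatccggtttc

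**Figure D1:**
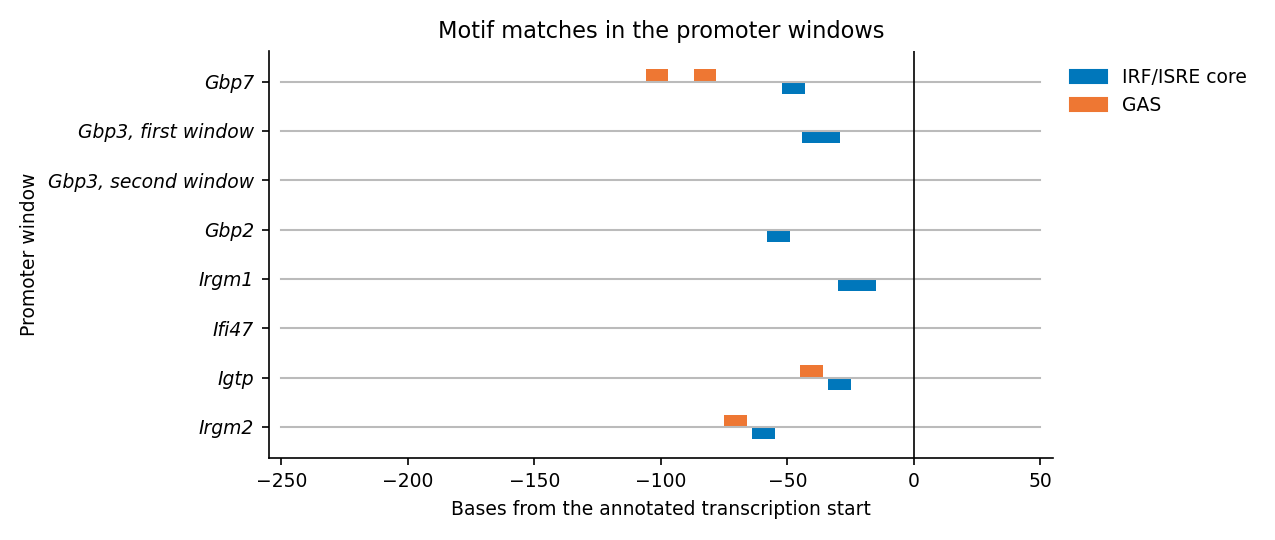
Positions of ISRE core and GAS matches in the 8 RefSeq promoter windows of 7 members, in bases from the annotated transcription start (0 on the horizontal axis). Touching blocks are overlapping matches, and each of these matches lies between base -106 and base -16.

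Each match lay close to the start, the ISRE cores from base -64 (*Irgm2*) to base -16 (*Irgm1*) and the GAS from -106 (*Gbp7*) to -37 (*Igtp*). The window of *Ifi47* and a second window of *Gbp3* held neither motif. Lined up on the ISRE core, *Igtp* and *Irgm2* were equal at 68 of 70 bases (97.1%), while *Irgm1* was equal to either at 21 of 70 (30%), and the 3 GBP windows were equal to each other at 35.7% to 42.9% of bases. The arrangement of *Igtp* and *Irgm2*, a GAS, 2 bases and an ISRE core, was searched for in all windows after it was seen in theirs. It was present in 8 of 32851 windows (0.0244%), which included *Tgtp1*, *Tgtp2* and *Gm12185* of the first IRG cluster, *Adar*, an RNA-editing gene induced by interferon, and 2 others, *Olfr382* and *LOC115488470*. A match is a description of letters and not of binding.

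Values are normalised reads, that is, reads plus 0.5 per 1e6 of an effective library size that the authors used. Fold changes, standard errors (SE) and adjusted p-values are from limma on log2(value + 1) over all 13426 genes, with Benjamini-Hochberg adjustment and a threshold of 0.05 on the adjusted p for a call. This comparison changed many genes: 27.7% of all genes were called higher in Upf1-cKO and 25.0% lower.

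The labelled cell type and genotype were checked against genes of the table. The background of each count of markers called is 27.7% of all genes higher and 25.0% lower. All 12 early B lineage markers were present, with a summed level of 2143 to 2400.1 in Ctrl and 2528 to 2697 in Upf1-cKO. Of these 6 were called higher (*Kit* 2.07, *Dntt* 1.64, *Rag1* 1.55, *Vpreb2* 1.26, *Rag2* 1.16 and *Vpreb1* 0.40), 2 lower (*Cd79a* and *Il7r*, the latter at -0.61) and 4 were not called, and the part of this shift in the values of the members was not tested. *Cd79a*, whose locus carries Cre in Upf1-cKO mice, had a log2 fold change of -1.58 (adjusted p 1.24e-11). *Upf1* itself measured 260, 203 and 259 normalised reads in Ctrl and 308, 283 and 299.7 in Upf1-cKO (log2 fold change 0.31, adjusted p 0.00696). Values over all exons were thus not lower in Upf1-cKO and, as only internal exons are removed, do not check the deletion. *Cd79a* bears on the labels, as its 234, 215 and 213 normalised reads in Ctrl and 71.6, 75.2 and 73.0 in Upf1-cKO put each library labelled Upf1-cKO, in which Cre disrupts an allele of this gene, below every Ctrl library. Of markers of other cells, neutrophil genes moved with the group. Of 8, 4 were called higher (*S100a8*, *S100a9*, *Ltf* and *Elane*) and none lower, and their summed level was 114, 18.1 and 14.1 in Ctrl and 443, 340 and 314 in Upf1-cKO. Ctrl library 1, with the highest neutrophil sum of its group, had the lowest member sum of its group, 108 beside 136 and 129, and the Upf1-cKO member sums were 371, 372 and 396. Without Ctrl library 1 all 10 members were still called, with a median of 1.003. The neutrophil sums of the remaining libraries still lay apart by group, so that fit cannot separate these markers from the members. The part of these markers in the values of the members was not tested. In RNA of a sorted population fewer cells of a type and less RNA per cell cannot be told apart. The summed markers of monocytes and macrophages spanned 69.1 to 108 in Ctrl and 89.2 to 117 in Upf1-cKO, with 1 of 7 called higher (*Lyz2*) and 1 lower (*Itgam*). Of 11 T and NK cell markers, 2 were in the table (1 higher, *Klrb1c*), at sums of 1.17 to 1.59 and 3.79 to 5.27, and *Cd3e*, *Trac* and *Prf1* were not among the genes of the table. *Klrb1c* was below 0.5 in Ctrl libraries 1 and 3, and *Elane* in Ctrl library 1. Both thus needed Upf1-cKO values to pass the lower limit of the table. Dendritic cell markers spanned 3.476 to 6.06 and 5.06 to 6.83 (4 of 6 in the table, 1 higher), erythroid markers 2.34 to 2.42 and 1.10 to 1.85 (2 of 7, none called), and mature B and plasma cell markers 37.2 to 51.2 and 30.2 to 32.9 (6 of 6, 1 higher and 2 lower).

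Of the 10 members, 10 were called higher in Upf1-cKO, where 27.7% of all genes were, and none lower, where 25.0% of all genes were. A log2 fold change of at least 1 together with a call was reached by 5 of 10 members and by 7.50% of all genes. In 10 of 10 members the lowest Upf1-cKO library was above the highest Ctrl library, which held for 30.9% of all genes. *Gbp8* was below 0.5 in 2 Ctrl libraries, so that it passed the lower limit of the table only with its Upf1-cKO values, whereas the other 9 were above 0.5 in each library. The median log2 fold change was 1.06 over the members and 0.01 over all genes, and the members stood between the percentiles 78.0 and 99.5 of all genes. Among the 9997 genes whose mean level lay in the range of the members, 29.8% were called higher and the median was 0.04.

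**Figure D2:**
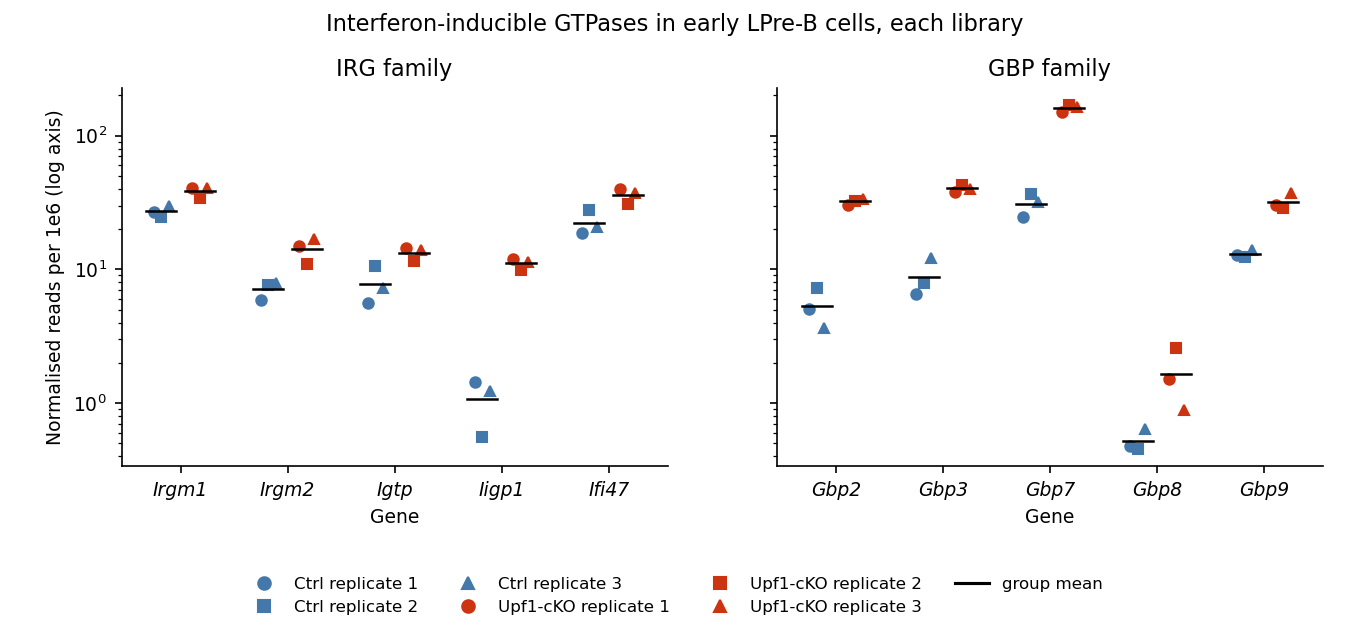
Normalised reads per 1e6 (log axis) of the IRG members on the left and the GBP members on the right in each of the 3 Ctrl (blue) and 3 Upf1-cKO (red) libraries, with the replicate number as the symbol and the group mean as a black line. In all 10 genes the red points lie above the blue ones, and the separation is widest for *Iigp1*, where the lowest Upf1-cKO library was 6.95 times the highest Ctrl library.

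Among the regulatory IRG proteins, the change was smallest for *Irgm1*, whose product sits on the Golgi and on lysosomes and is needed for control of mycobacteria. It measured 26.9, 24.8 and 29.9 normalised reads in Ctrl libraries 1 to 3 and 40.5, 34.2 and 40.4 in Upf1-cKO libraries 1 to 3. The groups did not overlap, but the lowest Upf1-cKO library was only 1.14 times the highest Ctrl library. The log2 fold change was 0.48 (SE 0.112, adjusted p 0.00141), the lowest of the 10 members. *Irgm2*, which encodes another regulatory protein of the Golgi, measured 5.90, 7.63 and 7.89 in Ctrl and 15.1, 11.04 and 16.7 in Upf1-cKO. Its mean doubled, from 7.14 ± 1.09 to 14.3 ± 2.93 (SD, n = 3), and the log2 fold change was 0.90 (SE 0.176, adjusted p 0.000293). *Igtp*, also called Irgm3 and placed on the endoplasmic reticulum, measured 5.58, 10.6 and 7.30 in Ctrl and 14.4, 11.6 and 13.95 in Upf1-cKO. Ctrl library 2 and Upf1-cKO library 2 were nearly level in this gene, the second being 1.10 times the first, and the log2 fold change was 0.73 (SE 0.189, adjusted p 0.00315). *Igtp* and *Irgm2*, neighbours with nearly the same promoter window, had log2 fold changes whose 95% intervals overlapped, 0.34 to 1.13 and 0.53 to 1.27. The intervals of *Irgm1* (0.25 to 0.72) and *Ifi47* (0.38 to 0.96) overlapped both of these as well, and a relation to the promoter was not tested.

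The effector IRG genes differed widely from each other. *Iigp1* (Irga6, chr18:60373616-60392634), which loads onto the vacuole of *Toxoplasma*, was close to the lower limit of the table in Ctrl cells at 1.43, 0.556 and 1.24 normalised reads, which were 13, 5 and 12 reads. It reached 12.1, 9.96 and 11.3 in Upf1-cKO, or 123, 110 and 134 reads. Its log2 fold change of 2.57 (SE 0.212, adjusted p 1.19e-08) was the largest of the members, and since 1 was added to each value before the logarithm, the log2 scale understates it beside the 10.3-fold ratio of means. *Ifi47* (Irgd), an effector that loads onto the same vacuole, started higher, at 18.5, 27.7 and 20.9 in Ctrl, and reached 39.6, 31.0 and 37.5 in Upf1-cKO. Here Upf1-cKO library 2, the lowest of its group, was 1.12 times Ctrl library 2, and the log2 fold change was 0.67 (SE 0.139, adjusted p 0.000492). The intervals of the 2 effector genes, 2.12 to 3.01 for *Iigp1* and 0.38 to 0.96 for *Ifi47*, did not overlap.

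The 3 GBP members of chromosome 3 had log2 fold changes above 2. *Gbp2*, whose product carries a lipid anchor and binds the membranes of pathogens, measured 5.05, 7.22 and 3.62 in Ctrl and 30.4, 32.3 and 33.8 in Upf1-cKO. The Upf1-cKO libraries lay close together, and the log2 fold change was 2.44 (SE 0.176, adjusted p 2.23e-09). *Gbp3*, which is recruited to the *Toxoplasma* vacuole with the other GBPs, measured 6.53, 7.93 and 12.1 in Ctrl and 37.9, 42.8 and 40.1 in Upf1-cKO, which gave a log2 fold change of 2.105 (SE 0.164) and an adjusted p of 7.29e-09. *Gbp7*, whose product is needed for control of *Toxoplasma*, measured 24.5, 36.6 and 31.8 in Ctrl and 149.5, 168 and 164 in Upf1-cKO. Its log2 fold change of 2.35 had the smallest adjusted p of the members (SE 0.116, adjusted p 5.68e-11), and its lowest Upf1-cKO library was 4.08 times its highest Ctrl library. The 95% intervals of *Gbp2* (2.07 to 2.81), *Gbp3* (1.76 to 2.45) and *Gbp7* (2.11 to 2.60) overlapped each other.

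On chromosome 5, *Gbp9*, whose product is also recruited to that vacuole, measured 12.9, 12.3 and 13.9 in Ctrl and 30.2, 28.6 and 37.1 in Upf1-cKO. The Ctrl libraries had a mean of 13.0 ± 0.794 (SD, n = 3), and the log2 fold change was 1.23 (SE 0.129, adjusted p 2.63e-07), with an interval of 0.957 to 1.498 that lay below those of the chromosome 3 genes. *Gbp8* was near the lower limit of the table, with 4, 4 and 6 reads in Ctrl and 15, 28 and 10 in Upf1-cKO, or 0.478, 0.455 and 0.645 against 1.51, 2.57 and 0.885 normalised reads. Its log2 fold change of 0.75 (SE 0.242, adjusted p 0.0138) rests on Upf1-cKO library 2, without which it was 0.51 with an adjusted p of 0.099. The other 9 members remained called when any 1 library was left out.

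**Figure D3:**
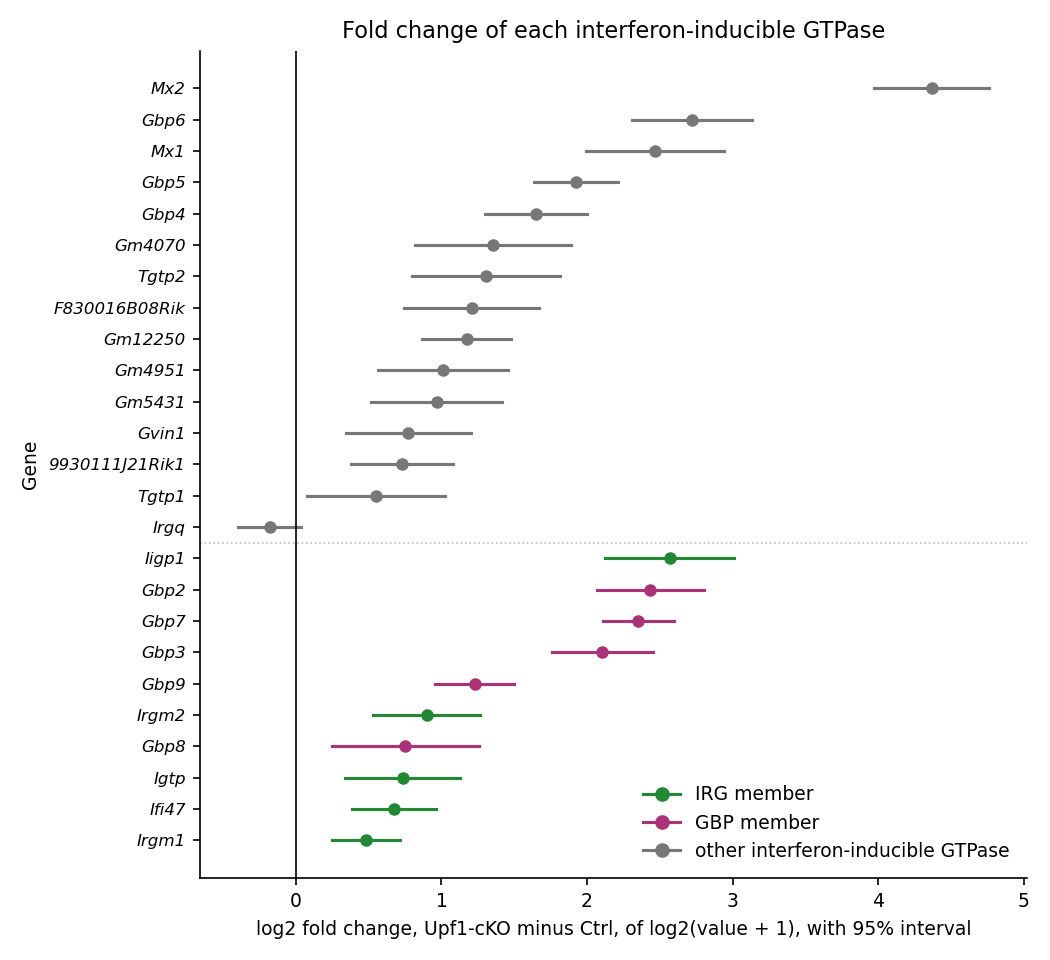
Log2 fold change of log2(value + 1), Upf1-cKO minus Ctrl, with its 95% interval from limma, for the 10 members (below the dotted line) and for 15 other genes listed as interferon-inducible GTPases (above it). Each member interval lies above 0, from *Irgm1* at 0.48 to *Iigp1* at 2.57, and *Irgq* at -0.18 is the only gene of either set below 0.

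Summed over each family, the IRG members rose from 65.6 ± 6.61 normalised reads in Ctrl to 113 ± 13.3 in Upf1-cKO (SD, n = 3), a ratio of 1.72. The GBP members rose from 58.7 ± 8.07 to 267 ± 14.7, a ratio of 4.54. The families thus had like sums in Ctrl cells, and unlike ones in Upf1-cKO cells. *Gbp7* alone made up 52.8% of the GBP sum in Ctrl and 60.2% in Upf1-cKO, and *Irgm1* made up 41.5% and 33.9% of the IRG sum. The median log2 fold change was 0.73 for the 5 IRG and 2.105 for the 5 GBP members, and 1 IRG member (*Iigp1*) and 4 GBP members (all but *Gbp8*) had one of at least 1. *Gbp8*, a gene of few reads, fell short on the scale with 1 added, while its ratio of means was 3.15 and its log2 fold change 1.38 with a pseudocount of 0.1 and 1.74 with DESeq2. The difference between the families was not tested, and the families overlap in range. Sums are dominated by long and abundant transcripts and are not counts of molecules.

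Per kilobase of transcript, *Ifi47* was the most abundant member in Ctrl cells at 12.6 ± 2.69 normalised reads per kilobase (SD, n = 3), above every library of *Irgm1* at 7.10 ± 0.673. *Gbp7* (5.52), *Igtp* (3.86), *Gbp3* (3.30), *Gbp9* (2.58), *Gbp2* (2.11) and *Irgm2* (2.02) followed, each overlapping its neighbours in this order. *Iigp1* (0.345) and *Gbp8* (0.156) lay below all of them. In Upf1-cKO cells *Gbp7* came first at 28.6 ± 1.73 per kilobase, above every library of *Ifi47* at 20.3 ± 2.53. Then came *Gbp3* (15.0), *Gbp2* (12.8), *Irgm1* (10.02), *Igtp* (6.58), *Gbp9* (6.34), *Irgm2* (4.05), *Iigp1* (3.56) and *Gbp8* (0.490), with overlap between neighbours only for *Igtp* with *Gbp9* and for *Irgm2* with *Iigp1*. *Gbp2* and *Gbp3*, below *Irgm1* in every Ctrl library by this scale, were above it in every Upf1-cKO library.

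**Figure D4:**
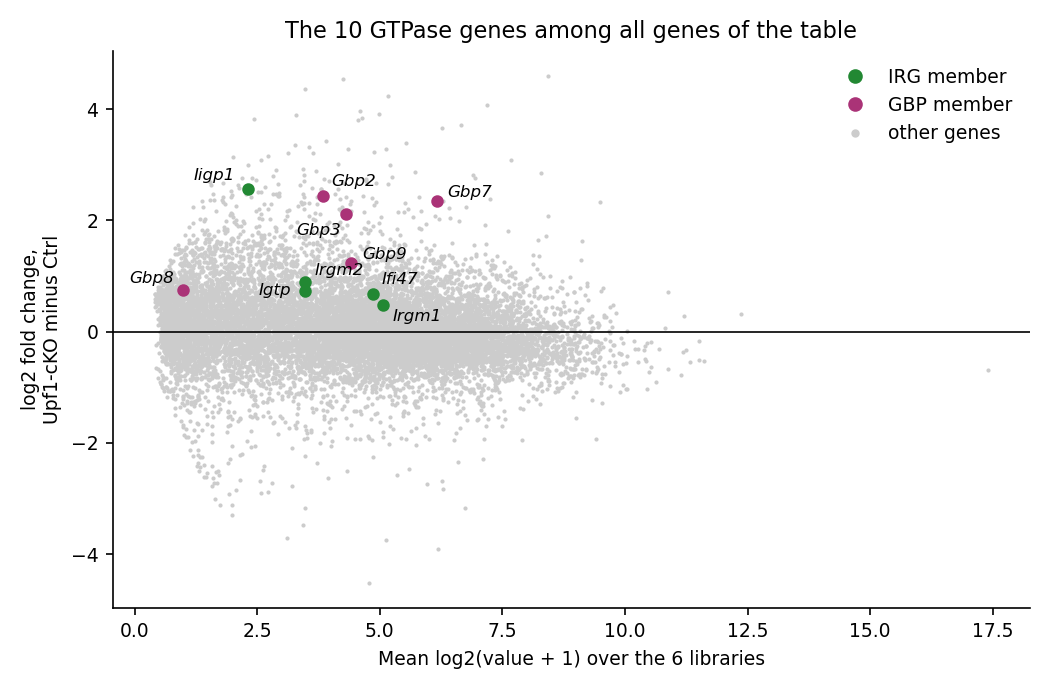
Log2 fold change against the mean of log2(value + 1) over the 6 libraries for all 13426 genes (grey), with the IRG members in green and the GBP members in purple. *Iigp1*, *Gbp2*, *Gbp3* and *Gbp7* lie towards the upper edge of the genes of like mean level, and *Irgm1*, *Ifi47*, *Igtp* and *Irgm2* lie within the cloud.

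Within the Upf1-cKO group, library 2 had the lowest value in 5 of 5 IRG members and in 1 of 5 GBP members (*Gbp9*), whereas it had the highest value in 3 of 5 GBP members. Over all genes called higher, library 2 was the lowest of the 3 in 40.8% and the highest in 29.1%. The IRG and GBP members thus did not follow the same order of libraries, with sums of 122, 97.8 and 120 for the IRG and 249.6, 274 and 276 for the GBP members in Upf1-cKO libraries 1 to 3. Within Ctrl, library 1 had the lowest sum of both families, 58.4 for the IRG and 49.5 for the GBP members.

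The members share sequence with relatives, so some of their reads could be assigned to another gene or be left out. The share of 50-base stretches of the longest transcript that also occur in another gene was highest for *Gbp8* at 18.2% (with *Gbp11*, *Gbp9* and others), followed by *Gbp7* at 12.8% (mostly with *Gm43802*), *Igtp* at 12.3% (with *Irgm2*) and *Gbp9* at 8.31%. It was 7.36% for *Irgm2*, 4.79% for *Gbp3*, 3.71% for *Ifi47* (with *Olfr56*), 3.19% for *Iigp1*, 2.07% for *Gbp2* and 0 for *Irgm1*. The study's methods describe the alignment as unstranded and give no strand setting for the counting. *Ifi47*, *Gbp2* and *Gbp3* each overlap 1 other annotated gene, so their values may hold reads of that gene.

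Relatives of the members rose as well. Of 15 other genes of the table listed as interferon-inducible GTPases, 14 were called higher, where 27.7% of all genes were, and none lower. A further 7 listed relatives (*Gbp2b*, *Gbp10*, *Gbp11*, *Gm4841*, *9930111J21Rik2*, *Gvin2* and *Gvin3*) were not analysed here. *Tgtp1*, *Gm5431*, *Gm4951* and *F830016B08Rik* were below 0.5 in each Ctrl library, so they passed the lower limit of the table only through Upf1-cKO, which set their direction though not their call. Without these 4, 10 of 11 were called higher. Among these 10, *Gm4070* was below 0.5 in Ctrl library 1, so it too needed a Upf1-cKO value to pass the lower limit. *Gbp5*, next to *Gbp7*, measured 6.43, 6.52 and 7.40 in Ctrl and 28.5, 26.6 and 30.6 in Upf1-cKO (log2 fold change 1.93, adjusted p 1.78e-09). *Gbp6* and *Gbp4*, on chromosome 5 with *Gbp9*, rose too, *Gbp6* by 2.72 (adjusted p 2.12e-09) and *Gbp4* by 1.65 (adjusted p 1.66e-07) on the log2 scale. The antiviral GTPase genes *Mx2* and *Mx1*, both annotated as transcribed pseudogenes in this genome, showed log2 fold changes of 4.37 for *Mx2* (adjusted p 2e-12) and 2.47 for *Mx1* (adjusted p 4.19e-08). *Mx2* went from 1.48 ± 0.392 to 50.9 ± 12.6 normalised reads (SD, n = 3). In the IRG clusters, *Gm12250* (1.17), *Tgtp2* (1.31), *Gm5431* (0.97) and *9930111J21Rik1* (0.73) of chromosome 11 and *F830016B08Rik* (1.21) and *Gm4951* (1.01) of chromosome 18 rose on the log2 scale, the last with 0 or 1 read in each Ctrl library against 11 to 16 in Upf1-cKO. *Tgtp1* had 3 reads in each Ctrl library and 8, 7 and 18 in Upf1-cKO (log2 fold change 0.55, adjusted p 0.0477), and this call was lost in 11 of 16 alternatives, with an adjusted p of 0.0534 under the replicate block. The very large inducible GTPases *Gm4070* and *Gvin1* of chromosome 7 rose by 1.35 (adjusted p 0.00021) and 0.77 (adjusted p 0.00391). Whether interferon induces *Irgq*, a family member that lies apart from the clusters, was not examined here. *Irgq* was not called, at 55.9 ± 5.03 in Ctrl and 49.3 ± 5.78 in Upf1-cKO (log2 fold change -0.18, adjusted p 0.152). Its sign was reversed by scaling to total reads, at 0.02, and it was called lower with median centring, at -0.29 (adjusted p 0.0229).

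By position, each family gene of the table that lies in one of the 5 clusters was called higher, 6 of 6 and 3 of 3 in the first and second clusters of chromosome 11, 4 of 4 on chromosome 3, 4 of 4 on chromosome 5 and 3 of 3 on chromosome 18. The 4 genes below 0.5 in each Ctrl library are among them, 2 in the first cluster of chromosome 11 and 2 on chromosome 18. So is *Gbp8* on chromosome 5, which also passed the lower limit only with its Upf1-cKO values. The counts include *Tgtp1*, whose call was lost in 11 of 16 alternatives, and *Gbp8*, whose call was lost without Upf1-cKO library 2. Over all genes 27.7% were called higher. Of the 10 nearest genes of the table outside the clusters, 1 on each side, 3 were called higher, 3 lower and 4 were not called, which is near the 27.7% and 25.0% of all genes. The higher ones were *Olfr56* (log2 fold change 0.99), which shares sequence with *Ifi47*, *4930438A08Rik* (0.91) and *Pdlim5* (0.29). Lower were *Trim7* (-0.68), *Mrpl22* (-0.63) and *Isoc1* (-0.32). *4930438A08Rik* was below 0.5 in each Ctrl library and *Olfr56* in 2 of them, so both passed the lower limit only with their Upf1-cKO values.

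**Figure D5:**
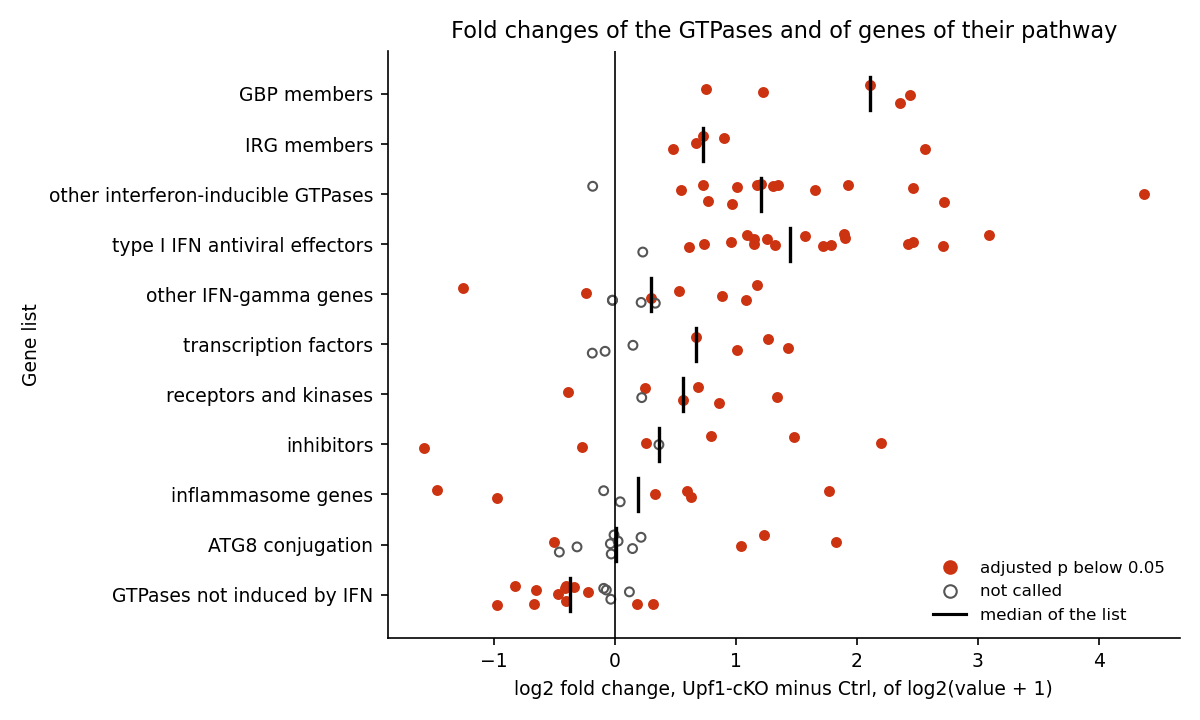
Log2 fold changes, Upf1-cKO minus Ctrl, of the members and of the listed genes of their pathway, with filled red points for an adjusted p below 0.05, open points for genes not called and a black bar at the median of each list. Points are spread vertically for legibility. The median was 2.105 for the GBP members, 0.73 for the IRG members, 1.21 for the other interferon-inducible GTPases, 1.45 for the type I interferon effectors and -0.37 for GTPases not known to be induced by interferon.

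Of 7 receptor and kinase genes of interferon signalling, 5 were called higher and 1 lower (median log2 fold change 0.56), where the shares over all genes were 27.7% and 25.0%, which are also the background of the counts of transcription factors, inhibitors and other GTPases. *Ifngr2*, the signalling chain of the interferon-gamma receptor, rose from 21.7 ± 4.75 to 55.6 ± 4.30 normalised reads (SD, n = 3; log2 fold change 1.34, adjusted p 1.14e-07), while the ligand-binding chain *Ifngr1* was not called (0.22, adjusted p 0.0996) but was in 2 of 17 alternatives. Both chains of the type I receptor were higher, *Ifnar1* by 0.69 (adjusted p 3.14e-06) and *Ifnar2* by 0.56 (adjusted p 3.29e-05). Among the kinases *Jak2* rose by 0.86 (adjusted p 1.71e-07) and *Tyk2* by 0.25 (adjusted p 0.0281, lost in 7 of 17 alternatives), whereas *Jak1*, which serves both receptors, was lower, at -0.39 (adjusted p 0.000271). The call of *Jak1* was lost with scaling to total reads, at -0.19 (adjusted p 0.0507), and the lower count was then 0. None of the 7 interferon genes on the list was analysed here.

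Of 7 transcription factor genes, 4 were called higher and none lower (median 0.67). Among parts of the complex that binds the ISRE were *Stat2*, from 46.3 ± 2.20 to 113 ± 7.27 normalised reads (SD, n = 3; log2 fold change 1.26, adjusted p 1.22e-09) and *Irf9* (1.01, adjusted p 6.62e-07). *Irf7*, itself induced by type I interferon, had a log2 fold change of 1.43 (adjusted p 2.00e-05), and *Irf1* one of 0.67 (adjusted p 6.91e-06). The 3 genes not called were *Irf2* (-0.18), a factor that opposes IRF1, *Irf8* (-0.08) and *Nlrc5* (0.15), with adjusted p-values of 0.0558, 0.434 and 0.102. The signs of *Irf2* and *Irf8* were reversed by scaling to total reads. *Irf2* was called lower and *Nlrc5* higher in 3 of 17 alternatives each. Of 7 genes listed as inhibitors of this signalling 4 were higher and 2 lower (1 without Ctrl 1, Upf1-cKO 1 or Upf1-cKO 3, with no trend and with total reads). Among the 7, *Cish* (2.20) and *Socs3* (1.48) were higher, and the phosphatase gene *Ptpn6* was lower, at -1.57 (adjusted p 1.14e-10). Whether *Cish* acts on interferon signalling was not examined here.

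Genes induced mainly by type I interferon were called higher in 17 of 18, beside 27.7% of all genes, with a median of 1.45 and with *Ifi44* (3.09), *Oas3* (2.71) and *Oasl1* (2.47) at the top. Other genes induced mainly by interferon-gamma were called higher in 5 of 11 and lower in 2 of 11, beside 27.7% and 25.0% of all genes, with a median of 0.30. A further 3 of that list (*Cxcl9*, *Cxcl10* and *Ido1*) were not analysed here. The lower count was 1 in 5 of the 6 fits without 1 library (all but the one without Ctrl 1) and with total reads or no trend. In that list *Serpina3g* (1.18, adjusted p 0.000155) and *Cd274* (1.09, adjusted p 0.000406), which encodes PD-L1, were higher, the first having passed the lower limit only with its Upf1-cKO values, and *Ciita*, the master regulator of MHC class II genes, was lower at -1.25 (adjusted p 1.16e-06). Of the ATG8 conjugation genes that place the GTPases on membranes, 3 of 12 were higher (*Gabarapl1* 1.83, *Atg10* 1.23 and *Atg12* 1.04) and 1 was lower, around a median of 0.01, beside 27.7% and 25.0% of all genes. Scaling to total reads gave 5 higher and 0 lower, median centring and quantile normalization 3 lower, and leaving out Ctrl 1 or Upf1-cKO 1 gave 2 lower. Of 8 inflammasome genes on which the GTPases act, 4 were higher and 2 lower, beside 27.7% and 25.0% of all genes, so the share called lower was that of the background. *Casp4*, which encodes caspase-11, had a log2 fold change of 1.77 (adjusted p 5.22e-07), and *Pycard*, which encodes the adaptor ASC, fell by 1.47 (adjusted p 8.86e-09), as did *Il18* by 0.98 (adjusted p 0.000921). Among 16 GTPase genes not known to be induced by interferon, 2 were higher and 10 lower, led by *Arf6* (-0.97), *Atl2* (-0.82) and *Rac1* (-0.67), with a median of -0.37. The higher count was 1 with the replicate block, with DESeq2, with no trend and without Ctrl 1, Ctrl 2, Upf1-cKO 1 or Upf1-cKO 2, and 0 without Upf1-cKO 3 or with median centring. The lower count was 6 with scaling to total reads.

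The genes whose pattern over the 6 libraries was most like the mean standardised pattern of the members, outside all lists, were *Sdf4*, *Elovl6*, *Pvt1*, *Snx5* and *Scrn2*, with Pearson r from 0.9985 to 0.9994. As both groups differ in so many genes, 1411 of the 12856 named genes compared (10.98%) had an r above 0.95 over these 6 libraries, so such likeness is common in this table.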

How the data were processed

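RNA of sorted early LPre-B cells from 3 Ctrl and 3 Upf1-cKO samples was depleted of ribosomal RNA and sequenced from a single end. Per the study's methods and the submitters' processing notes, the authors trimmed reads with cutadapt 4.0, aligned them to mm10 with HISAT2 without strand, counted them per gene with featureCounts 2.0.1 and used limma 3.48.0. They deposited 1 table with Entrez identifiers as gene names and, for each library, a linear signal. The values themselves gave the unit: each equals a read count with 0.5 added, over an effective library size in 1e6 reads. Whole reads were recovered for 100% of values within 0.05 reads, in totals of 9732498 to 11006834 per library, which are the depth behind each value. Every gene exceeded 0.5 in at least 3 libraries, so low genes were absent from the deposited table. Reads have no molecular identifiers, so read numbers are not numbers of molecules.

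RefSeq annotation of GRCm38.p6 (the build of mm10) named 13008 of 13426 genes and gave positions and promoter windows. Transcript lengths were those of the longest GENCODE transcript of each gene, and shared sequence was searched for in GENCODE transcripts. Groups and replicate numbers came from the labels. The groups were compared with limma 3.58.1 (R 4.3.3) on log2(value + 1), with trend and robust set in eBayes, no covariate, and Benjamini-Hochberg adjustment over all genes. This scale understates changes of genes with few reads. The fit was tested on simulated data. Replicate libraries differed beyond sampling noise (chi-square of 4.39 to 22.0 per degree of freedom), so none was counted as a repeat.

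The members, the gene lists and the tests were chosen with earlier results of these data known. The named genes were every member, *Upf1*, every listed receptor, kinase, transcription factor and other interferon-inducible GTPase of the table, at most 3 called genes with the largest absolute change of each other pathway list, and the 5 genes most alike. Cluster neighbours, marker genes and *Adar* were named after their values or sequences were seen. Alternatives comprised 3 fits on the recovered reads (voom, edgeR 4.0.16 and DESeq2 1.42.0), 3 other scalings (median centring, quantile normalization, total reads), the replicate block, no trend in eBayes, a pseudocount of 0.1 or none, a minimum mean log2 value of 1, and leaving out each library. Protein sequences and the windows of *Iigp1*, *Gbp8* and *Gbp9* were not analysed here, nor were listed genes outside the table, among them *Il1b* and *Fcgr1*. Some listed genes are not reported here.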

Additional observations from a re-analysis of the deposited data

How the results depend on the processing

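Of the 10 members, 9 were called higher under each alternative run, with log2 fold changes of 0.37 to 0.68 for *Irgm1* and 2.37 to 3.479 for *Iigp1* at the extremes, and the largest adjusted p among them was 0.0231 (*Igtp*, eBayes without trend). *Gbp8* fell to 0.51 (adjusted p 0.099) without Upf1-cKO replicate 2, rose to 1.74 with DESeq2, 1.73 with edgeR, 1.52 with voom, 1.54 with no pseudocount and 1.38 with 0.1, and was not tested under the minimum mean log2 value of 1. The median of the members, 1.06, was 1.41 with voom, 1.51 with edgeR and 1.51 with DESeq2 on recovered reads, 1.33 with a pseudocount of 0.1, 1.41 with none, 1.23 over the 9 members left by the minimum, 1.25 with scaling to total reads and 0.93 with quantile normalization, and 1.003 to 1.18 when 1 library was left out. Leaving out 1 library gave 3224 to 3643 genes higher, 2867 to 3350 lower, 9 to 10 members called and 0.51 to 0.97 for *Gbp8*. Scaling to total reads moved the median of all genes to 0.19 and gave 5172 higher and 1936 lower genes, so that higher genes were 72.8% of calls instead of 52.6%, and median centring gave 2992 and 4355 (40.7%). The lowest member stayed 0.47 to 0.49 above the median of all genes under these scalings. The sign was reversed for *Irf8*, at 0.022 with quantile normalization and 0.12 with scaling to total reads, and with the latter for *Irgq* (0.019) and *Irf2* (0.017). Calls were lost for *Tgtp1* in 11 of 16 alternatives and, of 17, for *Tyk2* in 7, *Upf1* in 2 (0.20 with median centring) and *Jak1* in 1. Calls were gained for *Irf2* and *Nlrc5* in 3 each, *Ifngr1* in 2 and *Irgq* in 1. The cause of these shifts was not tested.

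Replicate numbers are shared between groups, but deviations of same-numbered samples from their group means had correlations of 0.082, -0.030 and -0.021, none of them over 0.1. The labels also give same-numbered samples neighbouring sample numbers, without saying what these mark, so the pairing was not taken as part of the design. With the replicate block, 3668 genes were higher and 3321 lower beside 3725 and 3351. Under it all 10 members remained called and *Tgtp1* did not (adjusted p 0.0534). Precision is limited by 3 samples per group and, for *Gbp8* and for *Iigp1* in Ctrl, by few reads.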
